A study of Mus musculus with 6 samples.

Results

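Transcripts of 10 genes of the Ly6 and uPAR domain family were followed in mouse organoids: Ly6c1, Ly6d, Ly6e, Ly6k, Lypd3, Lypd6, Lypd6b, Lypd8, Lynx1 and Psca. They were taken by symbol from a table of 54418 genes and selected on their measured counts in this same contrast of Control against GATA6KO. All 10 had a row, and 8 had enough counts to be tested. The organoids, self-organising epithelial cultures, carry the cell type label AKP, which the labels do not spell out. Genotype is either Control or GATA6KO, the latter named for GATA6, a zinc-finger transcription factor of endoderm-derived epithelia. Each genotype had 3 libraries of poly(A)-selected RNA. The labels give no allele, clone, passage, age of culture or treatment, and do not say whether replicates were separate cultures. The p-values below thus set the difference between genotypes against the spread of libraries within each genotype, part of which could be technical. Library totals ran from 22973245 to 31328415 estimated counts.

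Proteins of this family carry the three-finger fold, in which loops held together by cysteine bridges extend from a compact core. Most are tethered to the outer leaflet of the cell membrane by a glycosylphosphatidylinositol (GPI) anchor, and a few are secreted. The fold is shared with snake neurotoxins, and several members bind nicotinic acetylcholine receptors. Others mark blood cell lineages, line stratified epithelia or, in the receptor of urokinase (uPAR, the product of Plaur), bind a protease. In mice many of these genes lie in one cluster on chromosome 15. In the annotation the coding stretches of the 10 genes were 116 to 363 codons long and held 10 to 19 cysteine codons. Lypd3 and Lypd8, whose proteins carry a pair of such domains, had 19 and 18 cysteine codons.

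The targeted gene came first as a check of the labels. Gata6 measured 25.3, 23.2 and 28.0 CPM (counts per 1000000, scaled between libraries by TMM) in Control replicates 1 to 3 and 14.3, 16.0 and 8.24 CPM in GATA6KO replicates 1 to 3. The groups did not overlap (log2 fold change -0.99, SE 0.25, edgeR adjusted p = 0.0486). That call held under 10 of 15 ways of processing, the main one included. It was lost with scaling by library total alone, with the replicate number as a block, and when any 1 Control library was left out, with adjusted p up to 0.181. Where in the gene the lesion lies is not given, so transcript level is only a partial check.

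Epithelial markers were abundant in all 6 libraries. Their sum over 8 genes was 9605 to 10410 CPM in Control and 6567 to 7707 CPM in GATA6KO, with Krt18, Krt8 and Cdh1 lower (edgeR adjusted p = 0.00971, 0.0256 and 0.0246). The 8 blood cell markers summed to 11.4 to 14.5 CPM in Control and 3.20 to 5.82 CPM in GATA6KO. Most of that was Cd68, a lysosomal protein, which was lower in GATA6KO (log2 fold change -1.79, SE 0.33, edgeR adjusted p = 0.019). Ptprc, the pan-leukocyte marker, stayed at or below 11 counts. The 6 endothelial markers summed to 4.56 to 5.44 CPM in Control and 5.80 to 6.84 CPM in GATA6KO, with Emcn at 0. The 7 fibroblast markers summed to at most 0.700 CPM in any library, and the 7 enteric neuron and glia markers to at most 2.03 CPM.

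Among the 10 genes the order of abundance spanned a wide range. Length was that of all annotated exons of a gene merged. It can exceed the length of the transcripts present, so the order depends on the annotation. Compared per length, as CPM per kilobase of exon, Ly6c1 led Control at 368, followed by Ly6e at 108, Lypd8 at 12.3, Ly6d at 6.30, Lypd6b at 5.63 and Lynx1 at 1.58. Lypd3 at 0.461 and Psca at 0.214 closed the list of detected genes. Only Ly6d with Lypd6b, and Lypd3 with Psca, were neighbours whose Control ranges overlapped. In GATA6KO the mean levels per kilobase were 207 for Ly6c1, 128 for Ly6e, 21.8 for Ly6d, 21.1 for Lypd6b, 5.47 for Lypd8, 4.51 for Lypd3, 1.67 for Lynx1 and 1.58 for Psca. There the ranges overlapped between Ly6c1 and Ly6e, between Ly6d and Lypd6b, and along the run from Lypd8 to Psca. Ly6d and Lypd6b thus stood above Lypd8 in GATA6KO and below it in Control.

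Of the 8 genes tested, 3 passed the test across all genes (edgeR's quasi-likelihood test, adjusted p under 0.05), all higher in GATA6KO: Lypd6b, Ly6d and Psca. Over the 14714 genes tested 12.4% were called, 6.92% higher and 5.47% lower. The values of the 2 groups did not overlap for 5 of the 8, beside 40.8% of all genes tested. The median log2 fold change was 1.02 over the 8 and 0.02 over all genes tested. Psca passed the filter on low counts through its GATA6KO libraries alone. Because the 10 genes were chosen with this contrast known, these counts and the values that follow are a description, and no test of a member is read. In whole organoids, fewer cells of a type and less RNA per cell cannot be told apart.

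**Figure D1:**
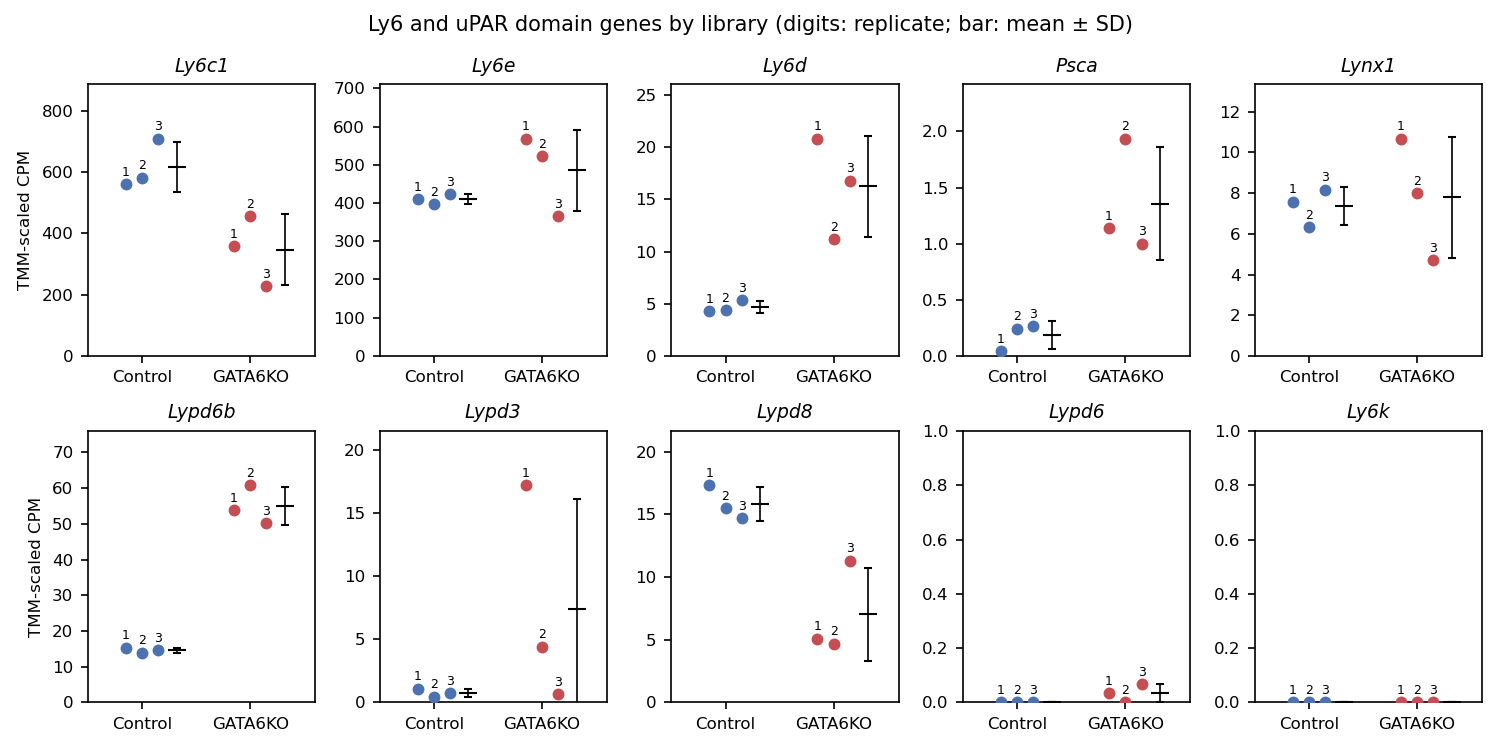
TMM-scaled CPM of the 10 genes in each library. Digits are replicate numbers, and bars give the mean ± SD over 3 libraries, with the axis starting at 0. Lypd6b, Ly6d and Psca were higher in every GATA6KO library, Ly6c1 and Lypd8 were lower in every one, and Lypd3 ran from 0.667 to 17.2 CPM within GATA6KO.

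Ly6c1 encodes a GPI-anchored surface antigen best known from monocytes, T cells and endothelium. Its gene sits at 75044018 to 75048830 on the minus strand of chromosome 15 (mm10). The bases before its start are printed here with those of its relatives Ly6c2 and Ly6g. The coding stretch of Ly6c1 was 91.6% identical to that of Ly6c2, 79.7% to Ly6i, 77.6% to Ly6a and 76.2% to Ly6g. Of its distinct stretches of 31 bases, 46.8% also occur in another gene and 33.0% occur in Ly6c2, so the split of estimated counts between them is uncertain. For Ly6g the share found in another gene was 9.55%. RefSeq's windows (GRCm38.p6) of the 250 bases before the start were 75.9% identical between Ly6c1 and Ly6c2 and 83.5% between Ly6c1 and Ly6g, over the bases that aligned. The windows of Ly6c1 (chr15:75048838-75049087, minus strand), Ly6c2 (chr15:75111972-75112221, minus strand) and Ly6g (chr15:75155011-75155260, plus strand) are given 5′ to 3′ on the gene's strand, with the longest run shared by all 3 in capitals.
Ly6c1: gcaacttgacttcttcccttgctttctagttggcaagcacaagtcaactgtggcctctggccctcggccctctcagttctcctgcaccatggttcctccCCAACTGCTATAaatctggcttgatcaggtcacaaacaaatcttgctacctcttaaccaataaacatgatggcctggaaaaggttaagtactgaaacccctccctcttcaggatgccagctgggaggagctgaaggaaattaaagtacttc
Ly6c2: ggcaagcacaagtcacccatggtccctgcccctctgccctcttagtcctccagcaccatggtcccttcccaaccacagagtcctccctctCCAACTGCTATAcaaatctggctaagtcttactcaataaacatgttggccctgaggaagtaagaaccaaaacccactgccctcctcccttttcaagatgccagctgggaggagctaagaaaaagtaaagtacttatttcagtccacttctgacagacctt
Ly6g: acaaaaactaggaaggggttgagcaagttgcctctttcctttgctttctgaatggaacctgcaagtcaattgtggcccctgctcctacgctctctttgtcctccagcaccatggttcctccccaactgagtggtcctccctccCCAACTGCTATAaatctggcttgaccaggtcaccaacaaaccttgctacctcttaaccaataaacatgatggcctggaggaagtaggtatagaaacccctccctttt

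The shared run of 12 bases began 151 bases before the start of Ly6c1, 160 before that of Ly6c2 and 107 before that of Ly6g. It occurred in 4 of 27025 windows in all, the fourth being that of Ly6a2. In Ly6c1 and Ly6g it ran into TATAAA, a sequence that 13.0% of all windows hold on either strand, and in Ly6c2 it did not. None of these 3 windows held a GATA motif, searched on both strands as AGATAA in one form, AGATAG in the next, TGATAA in another and finally TGATAG, of which 27.1% of all windows hold at least 1. The absence says only that those letters are not in these 250 bases.

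In Control replicates 1 to 3 Ly6c1 measured 559.5, 582 and 708.5 CPM, and in GATA6KO replicates 1 to 3 it measured 357, 457 and 228 CPM. Every GATA6KO library lay below every Control library, and replicate 3 was lowest. The mean went from 617 ± 80.3 to 347 ± 115 CPM (SD, n = 3 each), a log2 fold change of -0.83 (SE 0.25).

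Ly6e, whose GPI-anchored product restricts entry of coronaviruses and serves as a receptor for a placental syncytin, lies in the same cluster at 74955051 to 74959905 on the plus strand. Its level was 410, 397 and 423 CPM in Control replicates 1 to 3 and 568, 523 and 366 CPM in GATA6KO replicates 1 to 3. Replicates 1 and 2 of GATA6KO stood above Control and replicate 3 below it, so the groups overlapped. The log2 fold change was 0.24 (SE 0.17). Only 0.422% of its stretches of 31 bases recur in another gene, mostly the pseudogene Ly6e-ps1.

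Ly6d, a surface marker of keratinocytes, other stratified epithelia and early B-lineage cells, lies at 74762056 to 74763620 on the minus strand of chromosome 15. It measured 4.29, 4.40 and 5.37 CPM in Control replicates 1 to 3 and 20.8, 11.2 and 16.8 CPM in GATA6KO replicates 1 to 3. All GATA6KO libraries were above all Control libraries, at 2.39 to 4.44 times the Control mean. The log2 fold change was 1.79 (SE 0.26). No stretch of 31 bases of Ly6d occurs in another gene.

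Psca, the mouse form of prostate stem cell antigen, is a GPI-anchored protein known from prostate, urothelium and stomach. The gene lies at 74714839 to 74717069 on the plus strand of chromosome 15. It was close to the limit of detection in Control, with 1, 7 and 8 counts in the respective replicates, against 34, 59 and 30 counts in those of GATA6KO. The corresponding levels were 0.0438, 0.243 and 0.267 CPM in Control and 1.14, 1.93 and 1.001 CPM in GATA6KO. The groups did not overlap, and the log2 fold change was 2.80 (SE 0.57). The mean went from 0.184 ± 0.122 to 1.36 ± 0.504 CPM (SD, n = 3 each).

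Lynx1, Lypd6 and Lypd6b belong to the branch known for binding nicotinic acetylcholine receptors. Lynx1, the prototype of the endogenous toxin-like proteins that damp these receptors in brain, measured 7.58, 6.34 and 8.17 CPM in Control replicates 1 to 3 and 10.7, 8.0 and 4.70 CPM in GATA6KO replicates 1 to 3. Its GATA6KO values ran from below to above the Control range (log2 fold change 0.08, SE 0.31). Lypd6b measured 15.3, 13.9 and 14.7 CPM in Control replicates 1 to 3 and 53.8, 60.8 and 50.3 CPM in GATA6KO replicates 1 to 3. These were the tightest values of the 8 tested genes in GATA6KO, where the highest library was 1.21 times the lowest. Each GATA6KO library held 3.43 to 4.15 times the Control mean, and the log2 fold change was 1.91 (SE 0.11).

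Lypd6b (49787688 to 49948849) and Lypd6 (50066429 to 50193569) lie side by side on the plus strand of chromosome 2, and their coding stretches were 60.3% identical. Lypd6 is known as a binding partner of the Wnt co-receptor Lrp6. In contrast to its neighbour it had 0 counts in all Control libraries, and GATA6KO replicates 1 to 3 held 1, 0 and 2, too few to test. No stretch of 31 bases is shared between either gene and any other. Of the genes tested around the pair, Lypd6b alone was called.

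Lypd3, also called C4.4A, is a GPI-anchored protein of the suprabasal layers of stratified epithelia, with a pair of uPAR-like domains. It is encoded at 24636550 to 24641118 on the plus strand of chromosome 7. Of the 8 tested genes it varied most within GATA6KO, where the highest library was 25.8 times the lowest. The level was 1.10, 0.451 and 0.734 CPM in Control replicates 1 to 3 and 17.2, 4.43 and 0.667 CPM in GATA6KO replicates 1 to 3. In counts, the GATA6KO libraries held 515, 135 and 20, and the Control libraries 25, 13 and 22. Replicate 1 of GATA6KO stood 22.7 times above the Control mean, replicate 2 stood 5.83 times above it, and replicate 3 lay within the Control range. The log2 fold change of 3.30 carried an SE of 1.08. The mean of 7.44 ± 8.68 CPM (SD, n = 3) does not describe any of the 3 libraries.

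Lypd8, a heavily glycosylated GPI-anchored protein that the colonic epithelium sheds to keep flagellated bacteria off its surface, is encoded at 58379043 to 58390728 on the plus strand of chromosome 11. Its level was 17.3, 15.5 and 14.7 CPM in Control replicates 1 to 3 and 5.08, 4.69 and 11.3 CPM in GATA6KO replicates 1 to 3. All GATA6KO values lay below all Control values, with replicate 3 nearest to Control at 0.715 of its mean and the other replicates at 0.321 and 0.296. The log2 fold change was -1.17 (SE 0.35). Ly6k, a testis gene needed for sperm function, had 0 counts in all 6 libraries, which allows up to 3 counts in each, or 0.0958 to 0.131 per 1000000 of a library's total, for counting error only.

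The windows before Lypd8 and Lypd3 are printed because these are the members, besides Ly6c1 and Lypd6, for which RefSeq's table holds one, and because they differed in opposite directions in GATA6KO replicates 1 and 2. They are chr11:58378782-58379031 and chr7:24636320-24636569, both on the plus strand of GRCm38.p6, with no letters marked.
Lypd8: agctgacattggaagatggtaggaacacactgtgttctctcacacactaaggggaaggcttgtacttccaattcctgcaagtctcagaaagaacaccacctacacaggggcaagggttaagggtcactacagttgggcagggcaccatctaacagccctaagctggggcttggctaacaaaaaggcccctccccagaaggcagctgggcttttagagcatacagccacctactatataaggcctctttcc
Lypd3: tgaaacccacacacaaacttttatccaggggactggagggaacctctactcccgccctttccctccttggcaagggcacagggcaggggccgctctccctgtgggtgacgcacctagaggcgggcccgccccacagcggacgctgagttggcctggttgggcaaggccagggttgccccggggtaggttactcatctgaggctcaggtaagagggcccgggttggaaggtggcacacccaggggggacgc

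No GATA motif and no TATAAA was found in either window. The interferon-type element TTCNNNGAA, which 7.18% of all windows hold, was absent too. Only these letters were searched. Near its end the Lypd8 window holds TATATAAGG, a similar run that TATAAA does not match. Over 36 genes of the wider family with a window, 9 held a GATA motif.

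Libraries of GATA6KO differed from each other more than those of Control. The SD of log2 CPM was wider in GATA6KO for 7 of the 8 genes tested, Psca being the exception, and for 86.1% of all genes tested, with a median over all genes of 0.0949 in Control and 0.279 in GATA6KO. Over the tested genes of the family and 3 untested ones with more than 10 counts in a library, 26 in all, the order of the GATA6KO libraries was not the same. For 10 of them replicate 2 was highest and replicate 3 lowest, Ly6c1, Lypd6b and Psca included. For 6 of them, Ly6e, Lypd3, Lynx1, Ly6g6c, Slurp1 and Lypd2, replicate 1 was highest and replicate 3 lowest. On chromosomes 2, 7, 11 and 15, which hold the members, and on chromosome 17 the median log2 ratio of a library to the Control mean lay between -0.07 and 0.07.

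The wider family held 46 further genes in the table. Of these, 15 were tested, and 3 rose and 2 fell in GATA6KO, beside 6.92% and 5.47% of all genes tested. The median log2 fold change was -0.22 beside 0.02 for all genes tested. Three-finger genes of the major histocompatibility region on chromosome 17 were among those that rose. Ly6g6c measured 4.51, 3.78 and 3.54 CPM in Control replicates 1 to 3 and 34.7, 26.9 and 23.4 CPM in GATA6KO replicates 1 to 3. No GATA6KO library came near Control, and the gene rose by 2.85 on the log2 scale (SE 0.20, edgeR adjusted p = 0.00134). Ly6g6e, in the same region, measured 5.92, 4.40 and 5.07 CPM in Control and 17.6, 12.8 and 13.7 CPM in GATA6KO (log2 fold change 1.52, SE 0.20, edgeR adjusted p = 0.00656). It overlaps Ly6g6d on the opposite strand, and Ly6g6c overlaps Mpig6b likewise. The library kit marks strand, but whether the counting used it is not given, so reads of such pairs may be mixed. Ly6g6d itself had overlapping groups (log2 fold change 0.05, SE 0.35, edgeR adjusted p = 0.932). Pate14, of a cluster on chromosome 9 known from the male genital tract, rose from 2.37, 2.74 and 2.03 CPM to 9.23, 14.7 and 5.60 CPM (log2 fold change 2.05, SE 0.37, edgeR adjusted p = 0.019).

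Both genes that fell lie in the chromosome 15 cluster. Ly6m measured 9.64, 10.9 and 13.5 CPM in Control replicates 1 to 3 and 2.01, 0.820 and 0.901 CPM in GATA6KO replicates 1 to 3. It fell in every GATA6KO library, by 3.19 on the log2 scale (SE 0.39, edgeR adjusted p = 0.00559). Ly6c2, a monocyte antigen and the nearest relative of Ly6c1, measured 13.1, 11.7 and 14.4 CPM in Control and 5.18, 5.31 and 3.27 CPM in GATA6KO. It fell by 1.51 (SE 0.23, edgeR adjusted p = 0.0113), with 23.7% of its stretches of 31 bases also present in another gene. The calls of Ly6g6c and Ly6m held under all 15 ways of processing that were tried. That of Ly6c2 was lost without Control replicate 1 or 3 (edgeR adjusted p up to 0.0722), that of Ly6g6e without Control replicate 3 (0.0508) and that of Pate14 without any 1 of the Control libraries (up to 0.109).

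The most abundant relatives showed smaller differences that did not pass the test. Ly6a, also known as Sca-1, a marker of haematopoietic stem cells and of regenerating intestinal epithelium, had 791, 1003 and 643 CPM in GATA6KO replicates 1 to 3 against 1037, 1121 and 1250 CPM in Control (log2 fold change -0.48, SE 0.18, edgeR adjusted p = 0.116). Of the distinct stretches of 31 bases of Ly6a, 31.9% also occur in another gene and 21.9% in Ly6c1. The split of estimated counts between Ly6a and Ly6c1 is thus uncertain too. Ly6g, the granulocyte antigen, had 333, 359 and 204 CPM in GATA6KO against 457 to 540 CPM in Control (log2 fold change -0.76, SE 0.21, edgeR adjusted p = 0.0644). The blood cell markers beside them are given above, and their part in the levels of Ly6a, Ly6c1 and Ly6g was not tested. With the 7 mutually similar genes Ly6a, Ly6a2, Ly6c1, Ly6c2, Ly6f, Ly6g and Ly6i added into one row, the sum was 2068 to 2515 CPM in Control and 1078 to 1824 CPM in GATA6KO. That row did not pass (log2 fold change -0.63, SE 0.20, edgeR adjusted p = 0.0833), and the summing was chosen after the data were seen. All 56 family genes together took 2813 ± 237 CPM in Control and 2150 ± 484 CPM in GATA6KO (SD, n = 3 each), of which Ly6a, Ly6c1, Ly6g and Ly6e made up 89.2% to 95.1% in every library. At the other end, 23 of the 56 had at most 3 counts in every library.

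**Figure D2:**
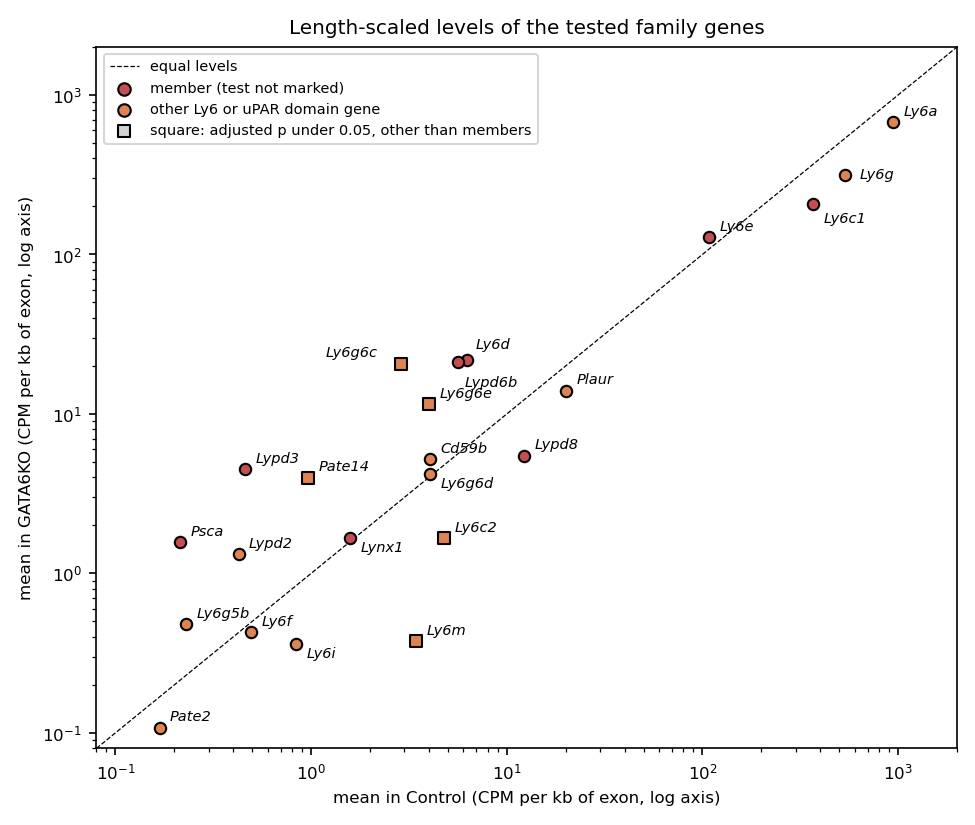
Mean level in Control (x axis) and in GATA6KO (y axis) of the 23 tested family genes, as CPM per kilobase of exon on log axes. The dashed line marks equal levels, and squares mark genes other than the members that passed the test. Ly6a, Ly6g, Ly6c1 and Ly6e form a group above 100 on both axes, Ly6g6c, Ly6g6e and Pate14 lie above the line, and Ly6c2 and Ly6m lie below it.

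Along chromosome 15 the differences did not go one way. The stretch from Jrk to Gpihbp1, 74702301 to 75599481, spans 897.2 kb and holds 52 annotated genes, of which 21 belong to the family, 20 are pseudogenes and 19 were tested. Of those 19, 3 were called higher and 2 lower, beside 6.92% and 5.47% of all genes tested. Psca and Ly6d were the higher members, chosen with this contrast known. The third was the transcribed pseudogene 9030619P08Rik, with 0, 2 and 4 counts in the Control libraries and 14, 35 and 14 in the GATA6KO libraries. It passed the filter on low counts through its GATA6KO libraries alone (log2 fold change 3.20, SE 0.78, edgeR adjusted p = 0.0439). Ly6m and Ly6c2 were the lower ones. Ly6m lies between Ly6d and Ly6e, with Ly6k, Gml and Gml2, none of them tested, between it and Ly6d. Around the members on other chromosomes, Zfp672 near Lypd8 was the other gene called (log2 fold change 0.69, SE 0.14, edgeR adjusted p = 0.0272).

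**Figure D3:**
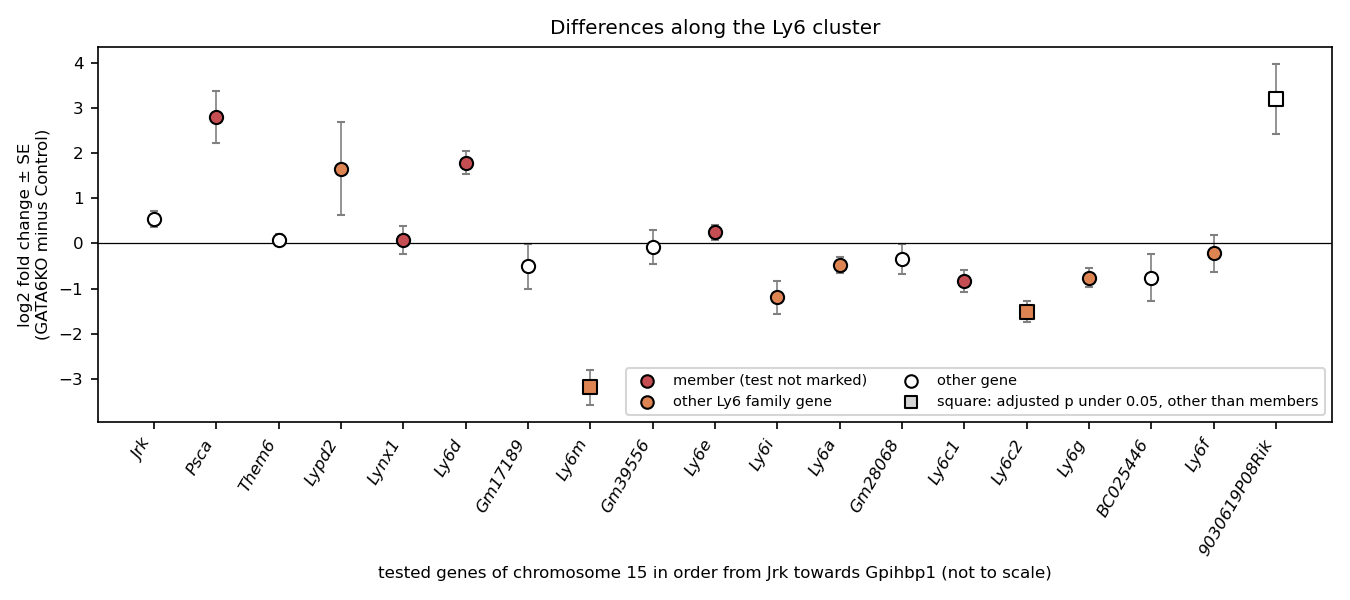
Log2 fold change ± SE (GATA6KO minus Control) of the 19 tested genes of the chromosome 15 stretch, in genomic order and not to scale. Squares mark genes other than members that passed the test. Psca and Ly6d lie above 0, Ly6m lies at -3.19 between Ly6d and Ly6e, and the genes from Ly6i to Ly6f lie below 0.

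The urokinase system, in which the uPAR receptor holds the protease urokinase at the cell surface and serpins inhibit it, was examined through Plaur and a list of 10 partner genes. Plaur measured 53.2, 50.5 and 54.5 CPM in Control replicates 1 to 3 and 33.7, 50.6 and 25.8 CPM in GATA6KO replicates 1 to 3. Replicate 2 of GATA6KO lay within the Control range and the others below it, and the gene did not pass the test (log2 fold change -0.52, SE 0.23, edgeR adjusted p = 0.177). Of 7 partners tested, 1 rose and 2 fell, beside 6.92% and 5.47% of all genes tested, with a median log2 fold change of -0.33.

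Plat, the tissue plasminogen activator, fell from 14.6, 14.3 and 14.5 CPM to 5.18, 9.71 and 5.40 CPM (log2 fold change -1.10, SE 0.26, edgeR adjusted p = 0.0425). Serpinb2, an inhibitor of plasminogen activators, rose from 0.307, 0.312 and 0.500 CPM to 1.77, 5.15 and 1.57 CPM (log2 fold change 2.90, SE 0.58, edgeR adjusted p = 0.0253). It passed the filter on low counts through its GATA6KO libraries alone. The calls of Plat and Serpinb2 were lost without any 1 of the Control libraries, with adjusted p up to 0.162 and 0.117 over all ways of processing, of which 9 and 11 of 15 kept the call. Plau, which encodes urokinase, had overlapping groups (log2 fold change 0.15, SE 0.20, edgeR adjusted p = 0.652). It lies on chromosome 14, where the median log2 ratio of all genes to the Control mean was -0.90 in GATA6KO replicate 2 and -0.09 and 0.04 in replicates 1 and 3.

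**Figure D4:**
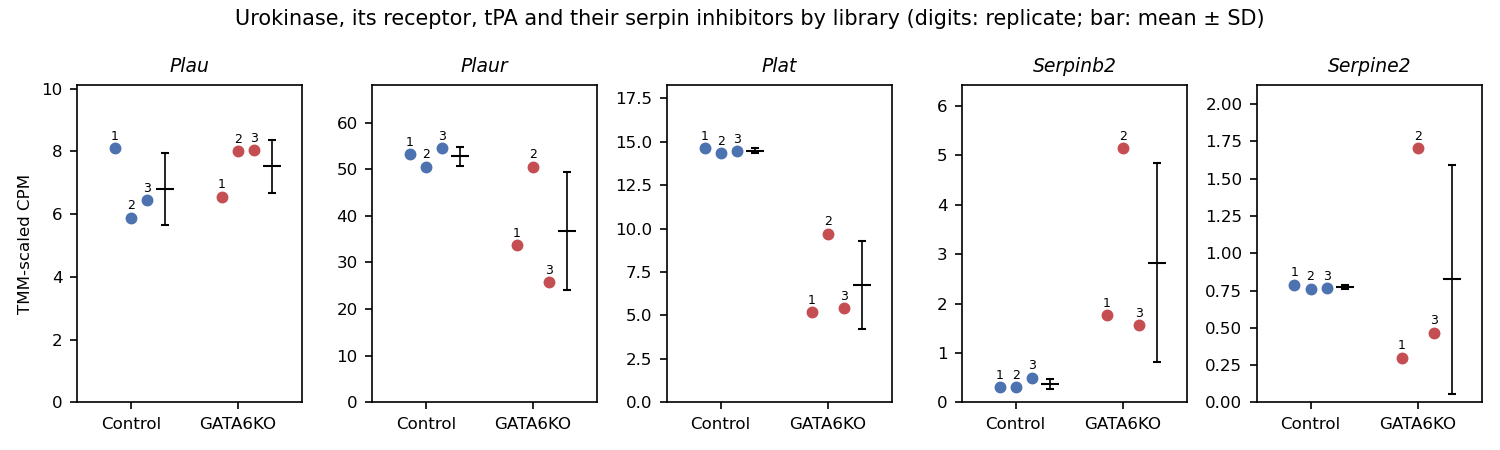
TMM-scaled CPM of Plau, Plaur, Plat and 2 serpins in each library. Digits are replicate numbers, and bars give the mean ± SD over 3 libraries. Plat is lower and Serpinb2 higher in every GATA6KO library, while Plau and Serpine2 overlap between the groups.

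Nicotinic receptor subunits, the partners of Lynx1 and Lypd6b, were nearly absent. Of 16 subunit genes 13 had fewer than 10 counts in every library and 2 were tested, Chrnb1 and Chrnb2. Chrnb1, the beta subunit of the muscle receptor, had 28.8 to 32.2 CPM in Control and 20.5, 48.8 and 21.7 CPM in GATA6KO (log2 fold change -0.03, SE 0.33, edgeR adjusted p = 0.961). Chrnb2, a neuronal subunit, had at most 1.62 CPM (log2 fold change -0.40, SE 0.46, edgeR adjusted p = 0.597). Neither had an unadjusted p under 0.05, and neither was called by DESeq2 or limma-voom. Of 6 tested Wnt co-receptors and their ligands, the setting in which Lypd6 is known, 0 were called by edgeR, and the median log2 fold change was -0.30. At an unadjusted p under 0.05 there were 2, both lower, and DESeq2 called 1 and limma-voom 0. Lrp5 and Lrp6, the co-receptors, had log2 fold changes of -0.49 (SE 0.19, edgeR adjusted p = 0.141) and -0.10 (SE 0.12, edgeR adjusted p = 0.609).

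The reported partners of Lypd3 comprise Agr2, the galectin Lgals3, laminin-332 chains and the integrin that binds laminin-332. Of 8 tested, 0 rose and 2 fell by edgeR, beside 6.92% and 5.47% of all genes tested, with a median log2 fold change of -0.43. None was higher at an unadjusted p under 0.05, nor by DESeq2 or limma-voom. Lower were 4 at an unadjusted p under 0.05, 4 by DESeq2 and 3 by limma-voom. Lamb3, a laminin-332 chain, fell from 238, 234 and 272 CPM to 160, 158 and 113 CPM (log2 fold change -0.79, SE 0.15, edgeR adjusted p = 0.0234). Itga6, a subunit of that integrin, fell from 901 to 925 CPM in Control to 610 to 739 CPM in GATA6KO (log2 fold change -0.46, SE 0.10, edgeR adjusted p = 0.0353). Both calls were lost without any 1 of the Control libraries, with adjusted p up to 0.109 and 0.152 over all ways of processing, of which 11 and 9 of 15 kept the call.

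Genes that build and attach the GPI anchor were measured as a set because most members depend on it. Of 27 tested, 1 rose and 2 fell, beside 6.92% and 5.47% of all genes tested, with a median log2 fold change of 0.08. Piga, on the X chromosome, encodes the catalytic subunit of the first step. It measured 92.5, 100 and 103 CPM in Control replicates 1 to 3 and 59.9, 46.4 and 55.2 CPM in GATA6KO replicates 1 to 3, and fell by 0.87 (SE 0.12, edgeR adjusted p = 0.00703), a call that held under all 15 ways of processing. Pgap1, which removes an acyl chain from the anchor after attachment, fell from 299, 322 and 368 CPM to 138, 174 and 80.8 CPM (log2 fold change -1.33, SE 0.27, edgeR adjusted p = 0.0258). Pigh, a second subunit of the first enzyme, rose by 0.57 (SE 0.13, edgeR adjusted p = 0.0346). Without any 1 of the Control libraries the calls of Pgap1 and Pigh were lost, with adjusted p up to 0.114 and 0.186 over all ways of processing, of which 10 and 9 of 15 kept the call.

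GPI-anchored proteins outside the family moved in both directions. Of 22 tested, 6 rose and 3 fell, beside 6.92% and 5.47% of all genes tested, with a median log2 fold change of 0.27. Cpm, which encodes carboxypeptidase M, rose from 9.38, 9.53 and 10.9 CPM to 58.7, 105 and 63.0 CPM (log2 fold change 2.93, SE 0.25, edgeR adjusted p = 0.00201). Gpc1, a glypican, rose from 35.0, 31.6 and 29.5 CPM to 102, 105 and 140 CPM (log2 fold change 1.85, SE 0.15, edgeR adjusted p = 0.00194). Both calls held under all 15 ways of processing. Nt5e, the ecto-nucleotidase CD73, went from 0.833, 0.867 and 1.37 CPM to 0.134, 0 and 0 CPM (log2 fold change -4.40, SE 0.90, edgeR adjusted p = 0.0267). Alpi, the intestinal alkaline phosphatase, fell by 3.94 (SE 0.74, edgeR adjusted p = 0.0206) from at most 1.63 CPM. Nt5e and Alpi passed the filter on low counts through their Control libraries alone. Without any 1 of the Control libraries the calls of Nt5e and Alpi were lost, with adjusted p up to 0.127 and 0.0988 over all ways of processing, of which 9 of 14 and 11 of 15 kept the call.

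Ly6d, Lypd3 and Psca are known from stratified epithelium and urothelium, so other genes of those tissues were counted. Of 12 tested, 2 rose and 3 fell, beside 6.92% and 5.47% of all genes tested, with a median log2 fold change of 0.50. Krt15, a keratin of basal cells, measured 5.08, 3.81 and 2.77 CPM in Control replicates 1 to 3 and 122, 128 and 60.8 CPM in GATA6KO replicates 1 to 3. Other basal keratins of the list did not follow it. Krt14 had overlapping groups (log2 fold change 0.46, SE 0.69, edgeR adjusted p = 0.689), and Krt5 had at most 2 counts in any library. Upk1b, a uroplakin of the bladder lining, fell from 10.7, 11.7 and 9.50 CPM to 0.669, 0.885 and 1.03 CPM (log2 fold change -3.61, SE 0.24, edgeR adjusted p = 0.0012). Smaller log2 fold changes were those of Krt13 (0.64, SE 0.16), Krt4 (-0.60, SE 0.10) and Sfn (-0.42, SE 0.10). Krt13 was called under 9 of the 15 ways of processing, Krt4 under 12 and Sfn under 7, and all 3 calls were lost without any 1 of the Control libraries.

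Lypd8 is a product of differentiated colonocytes, and other genes of the colonic barrier were counted with it. Of 7 tested, 1 rose and 1 fell, beside 6.92% and 5.47% of all genes tested, with a median log2 fold change of 0.23. Car1, a carbonic anhydrase of colonocytes, rose from 84.4, 93.3 and 64.9 CPM to 164, 209 and 194 CPM (log2 fold change 1.23, SE 0.16, edgeR adjusted p = 0.00668), in the direction opposite to Lypd8. Ceacam20, an adhesion molecule of the microvillus, fell from 2.37, 1.91 and 1.37 CPM to 0.635, 0.230 and 0.700 CPM (log2 fold change -1.84, SE 0.47, edgeR adjusted p = 0.0486), and its call was lost without any 1 of the Control libraries, with adjusted p up to 0.170 over all ways of processing, of which 10 of 15 kept the call.

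Interferon induces several Ly6 genes in blood cells, so 15 interferon-response genes were tested, and edgeR called 0 of them. At an unadjusted p under 0.05 there were 4, of which 2 were higher and 2 lower, and DESeq2 called 4 and limma-voom 1. Their median log2 fold change was -0.11. Irf1, a transcription factor and the most abundant, had a log2 fold change of 0.19 (SE 0.18, edgeR adjusted p = 0.495). Over all 9 lists 106 genes were tested, each counted once, and 24 were called, 11 higher and 13 lower. Of all genes tested 12.4% were called, 6.92% higher and 5.47% lower. The lists were chosen with earlier results of these data known.

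The genes whose pattern was most like that of the 2 most abundant members were found by Pearson correlation of log2 CPM over the 6 libraries. These share a genotype in groups of 3, so the values are descriptive. The genes were the most alike of 14714 over 6 libraries. A high r and a like order of replicates therefore come with that choice. For Ly6c1 they were 1810013L24Rik (r = 0.999), Slc25a48, a mitochondrial carrier (r = 0.997), and Maf, a transcription factor (r = 0.997). Slc25a48 measured 69.9, 69.0 and 83.8 CPM in Control replicates 1 to 3 and 37.3, 51.3 and 20.6 CPM in GATA6KO replicates 1 to 3. For Ly6e they were Slc39a3, a zinc transporter (r = 0.995), St14, the membrane protease matriptase (r = 0.995), and Bicdl1 (r = 0.994). St14 measured 208, 198 and 207 CPM in Control and 249, 239 and 189 CPM in GATA6KO. Its replicate 3 alone lay below Control, a likeness to Ly6e for which it was picked.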

How the data were processed

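RNA was poly(A)-selected and prepared with a directional kit, per the labels' protocols. The table that the authors deposited holds whole-number estimated counts, unscaled, with genes as rows. The submitters' processing notes list Salmon 1.3.0 and mm10, giving neither a role. Which annotation was used, how transcripts were summed to genes and whether strand was used is not given in the sources used here. Estimated counts share ambiguous reads among similar transcripts, which matters for the Ly6a, Ly6c and Ly6g genes. Of 54418 identifiers, 54096 matched a symbol and position in GENCODE M21. Library totals were 22973245 to 31328415.

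Genes were kept by filterByExpr of edgeR 4.0.16 (R 4.3.3) with its defaults, which ask for the equivalent of 10 counts in enough libraries and 15 in total, and 14714 remained. After TMM scaling the 2 genotypes were tested against each other by quasi-likelihood with no block, and p-values were adjusted by Benjamini and Hochberg's method over all genes, with a threshold of 0.05. Each SE is the log2 fold change over the square root of its F statistic. The biological coefficient of variation was 0.245. Steps were tested on simulated data.

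The members and all gene lists were chosen with earlier results of these data known, so the lists are described by counts and medians only. Named genes were the 10 members, up to 4 called genes of each list with the largest log2 fold change and at least 1 CPM in a group (the 2 most abundant where none was called), called neighbours, and the 3 most correlated genes of the 2 most abundant members. Some results that this rule would give are not reported here. Family symbols missing from the annotation were sought among RefSeq synonyms. Alternatives were RLE scaling, library total alone, DESeq2 1.42.0, limma-voom 3.58.1, no filter, a floor of 1 CPM in every library of a group, a block on the replicate number, and leaving out libraries 1 by 1. A further fit added the 7 mutually similar Ly6 genes into 1 row and left the counts of other genes unchanged. It and the main fit are among the 15 ways of processing. Promoter windows came from RefSeq GRCm38.p6, with the bases after the start left off.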

Additional observations from a re-analysis of the deposited data

How the results depend on the processing

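Calls of the 10 members, which were chosen with this contrast known, are given only to show how far the fits differ. Lypd6b was called in all 15 fits, the main one included. Under DESeq2 6 members were called, 3238 genes in all and 39 genes of the lists. Leaving out 1 library at a time gave 1 to 6 members, 2 to 9 other family genes, 7 to 44 list genes and 332 to 4360 genes in all. The lowest member count came without Control replicate 1 or 2, where Ly6d and Psca were lost, and the highest without GATA6KO replicate 3, where Lypd3, Lypd8 and Ly6e were gained. The count of other family genes was highest without GATA6KO replicate 2, that of list genes and of all genes without GATA6KO replicate 1. With the replicate number as a block, 2 members, 5 other family genes, 12 list genes and 827 genes in all were called. Samples with the same number did not deviate together (correlations of -0.01, 0.07 and -0.09, with 1 of 3 best matched by its own number). With 3 libraries per genotype this cannot tell whether they share a batch or are paired. Scaled by library total alone, 65.7% of all called genes were higher, against 55.8% with TMM, with a median log2 fold change of 0.09 over the genes tested, and 13 list genes were higher and 10 lower. In these fits no gene reversed while called. The cause of these shifts was not tested. Psca at 1 to 8 counts per Control library is where depth limits most, and for Ly6k and Lypd6 no difference was detectable.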

Other observations

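Some family genes fell below the filter on low counts and belong in no comparison. Slurp1, a secreted member made by keratinocytes, held 4, 3 and 3 counts in the Control libraries and 30, 12 and 7 in GATA6KO replicates 1 to 3. The order of the GATA6KO replicates was that of Lypd3, at counts near the limit of detection. Gml, a GPI-anchored relative in the chromosome 15 cluster, had 1, 1 and 4 counts in Control and 5, 7 and 13 counts in GATA6KO. Pate6 had 0, 0 and 2 counts in Control and 15, 3 and 6 counts in GATA6KO. These genes were picked after their values were seen.

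The 3 genes most like Lypd3 over the 6 libraries, also looked up after its values were seen, were Trpv4, a calcium-permeable channel (r = 0.994), the antisense transcript 4933431E20Rik (r = 0.991) and Nectin4, an adhesion molecule of epithelia (r = 0.990). Nectin4 measured 0.789, 0.381 and 0.600 CPM in Control replicates 1 to 3 and 4.55, 1.84 and 0.734 CPM in GATA6KO replicates 1 to 3. As with Lypd3, replicate 3 of GATA6KO lay within the Control range, a likeness for which Nectin4 was picked.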
